A study of Rattus norvegicus with 6 samples.

Results

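The miR-34 family was counted in small RNA from the liver of normal Wistar rats and of Wistar rats made to develop nonalcoholic fatty liver disease (NAFLD). Its members here are rno-miR-34a-5p, rno-miR-34b-5p, rno-miR-34c-5p and rno-miR-449a-5p, 4 of the 675 different starts of mature rat miRNAs that could be searched. A read sequence, called a tag, was given to a member when its first 18 bases equalled those of the mature miRNA, whatever its 3′ end. The rule uses sequence and no measured value, though the family was picked with earlier results of these data known. By read count the family was mostly miR-34c-5p in these libraries, with 848 of 959 family reads (88.4%). Of the rest, 81 reads were of miR-34a-5p, 18 of miR-34b-5p and 12 of miR-449a-5p.

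There were 3 NAFLD libraries and 3 normal libraries, described as biological repetitions, with 11601058 to 11880695 clean reads per library. NAFLD was set up by a fast of 48 h followed by 7 days on food with 80% starch, while normal rats ate standard food with 35% starch. Livers for sequencing were picked for high triglycerides in the NAFLD group and without selection in the normal group. All rats were male, with an age of 4 months in the labels and of 28 weeks in the methods, and no allele or other agent is named.

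miRNAs are short RNAs that are loaded into an Argonaute protein and pair with messenger RNAs mainly through the seed, bases 2 to 8 from the 5′ end, which lowers the output of those messengers. The genes of miR-34a and of the miR-34b/34c cluster are known as direct targets of p53, the transcription factor of the DNA damage response, and miR-34a has been studied in fatty liver because it represses Sirt1, a deacetylase of hepatic lipid metabolism. miR-34b, miR-34c and miR-449a are known above all from ciliated epithelia and testis. None of these targets was measured here.

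The mature sequences, from RefSeq on the GRCr8 assembly, are shown because all 4 carry the same seed, in capitals, and because miR-34b-5p and miR-34c-5p differ at 1 of the 18 bases by which reads were told apart.
rno-miR-34a-5p: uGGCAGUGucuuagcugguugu
rno-miR-34b-5p: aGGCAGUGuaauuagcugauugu
rno-miR-34c-5p: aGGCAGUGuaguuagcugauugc
rno-miR-449a-5p: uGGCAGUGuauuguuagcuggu
Counted from 1 at the 5′ end and written with T for U, the change from miR-34b-5p to miR-34c-5p is A11G and T23C, and only A11G falls in those 18 bases. Each of the other pairs differed at 6 to 8 of these bases. The only other mature miRNA of the table with this seed was rno-miR-449c-5p.

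miR-34a-5p lies on chr5:165815971-165815992 (plus strand, GRCr8), where its hairpin overlaps the long non-coding RNA gene LOC103692514. miR-34c-5p on chr8:60306133-60306155 and miR-34b-5p on chr8:60306657-60306679 are both on the minus strand. Their hairpins are 441 nt apart, and both overlap the span of the protein-coding gene Hoatz. miR-449a-5p on chr2:46403925-46403946 (plus strand) and its neighbour miR-449c, 1436 nt away, overlap the long non-coding RNA gene LOC134485839. Whether these places are exonic or intronic is not given in the table used.

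miR-34c-5p, from the miR-34b/34c cluster, was the member with the most reads. It had 152, 89 and 77 reads in NAFLD replicates 1 to 3 and 224, 98 and 208 reads in normal replicates 1 to 3. Scaled to 1000000 clean reads (TPM), NAFLD stood at 13.1, 7.57 and 6.52 and normal at 18.9, 8.26 and 17.5. NAFLD replicates 2 and 3 lay below all normal libraries, NAFLD replicate 1 lay above normal replicate 2, and so the groups overlapped. The mean was 9.06 ± 3.54 TPM in NAFLD and 14.9 ± 5.78 TPM in normal (n = 3 each, ± SD). The difference of -5.82 TPM was not separated from the spread between libraries (two-sided exact permutation test, p = 0.2, where 3 libraries against 3 cannot go below 0.1). Mature miRNA starts held 75.7% to 79.2% of clean reads in NAFLD and 85.7% to 91.3% in normal, without overlap. Scaled to 1000000 reads in miRNA starts instead, the difference was -5.10 (exact permutation test, p = 0.3). In edgeR's quasi-likelihood test over the 167 miRNA starts with enough reads, the log2 fold change of NAFLD over normal was -0.72 with a standard error of 0.45 and an adjusted p of 0.986. Of these 167 starts, 6 had a lower log2 fold change. By this test 0 of the 2 members that could be tested had an adjusted p under 0.05, against 0.599% of all starts tested, a share that is 1 start, rno-miR-122-5p. At an unadjusted p under 0.05 the members were again 0 with edgeR on all libraries, against 1.80% of all starts. With limma they were also 0, against 4 of 167 starts. DESeq2 gave miR-34c-5p an unadjusted p of 0.0248 and an adjusted p of 0.999, where 11 of 365 starts were under 0.05 unadjusted. In place of clean reads, TMM factors in edgeR gave it an unadjusted p of 0.0142 and an adjusted p of 0.436. There 12 of 167 starts were under 0.05 unadjusted. In edgeR without normal replicate 2 its unadjusted p was 0.0269 and its adjusted p 0.760, where 7 of 170 starts were under 0.05 unadjusted.

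**Figure D1:**
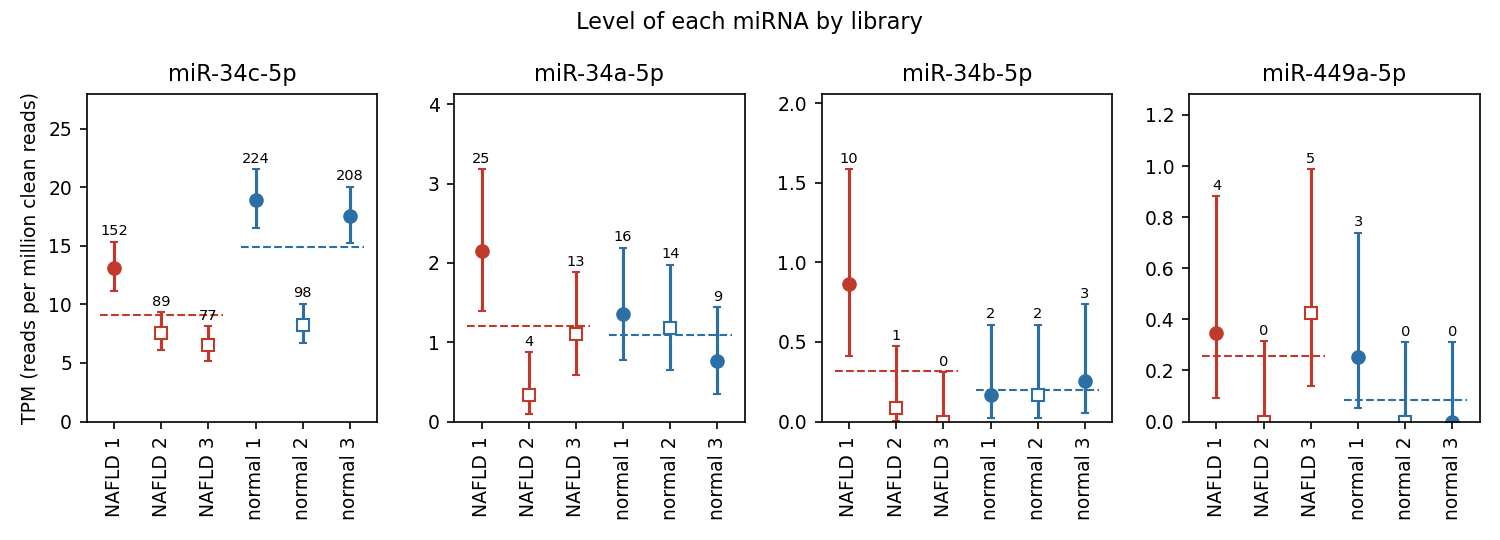
TPM of each member in each library (points), with 95% Poisson intervals of the counts (bars), the number of reads above each point and the group means (dashed lines). NAFLD is red and normal is blue, and open squares mark the 3 libraries of high substitution rate. For miR-34c-5p the open squares sit between 6.52 and 8.26 TPM and the filled circles between 13.1 and 18.9 TPM, in both groups.

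The groups overlapped in the level of miR-34c-5p, but 2 kinds of library, of high and of low substitution rate, did not. A high rate of base substitutions marked normal replicate 2 and NAFLD replicates 2 and 3, as counted in abundant tags, with a mean over read positions of 0.135% to 0.150%. The rate was 0.0466% to 0.0556% in the remaining libraries, which are normal replicates 1 and 3 and NAFLD replicate 1. The libraries of high rate had a mean of 7.45 TPM of miR-34c-5p and those of low rate 16.5 TPM. This division was not particular to miR-34c-5p. rno-miR-192-5p was at 11116 to 15925 TPM in the libraries of high rate and at 21523 to 28269 TPM in those of low rate. rno-miR-194-5p and rno-miR-16-5p were divided likewise, whereas rno-miR-145-5p overlapped. The share of all starts divided in this way was not counted. Within the libraries of low rate, NAFLD replicate 1 had 13.1 TPM against a mean of 18.2 TPM in normal replicates 1 and 3, a log2 ratio of -0.47. Within those of high rate, NAFLD replicates 2 and 3 had a mean of 7.04 TPM against 8.26 TPM in normal replicate 2, a log2 ratio of -0.23. NAFLD was thus below normal in both, but each rests on 1 library on one side and has no test. With the 2 kinds of library as a term in edgeR, the log2 fold change was -0.36 (standard error 0.29, adjusted p 0.633).

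Reads 1 substitution away from the start of miR-34c-5p were found mostly in the libraries of high rate. Starts 1 substitution away from that of miR-34c-5p, and equal to no other mature start, held 152 reads, of which 144 were in these 3 libraries and 8 in the other 3. The substitutions A5C with 45 reads, A14C with 44 reads and C4A with 28 reads made up 77.0% of them, and each had 0 reads in all 3 libraries of low rate. That they came from miR-34c-5p was taken from their sequence and was not tested. When 1 substitution was allowed, normal replicate 2 gained 62 reads, which were 38.8% of the 160 then given to miR-34c-5p. NAFLD replicates 2 and 3 gained 49 and 33 reads, or 35.5% and 30% of the total, whereas the libraries of low rate gained 1 to 4 reads. These shares take in all 18 positions, whereas the rates of abundant tags are medians at single positions. In the libraries of high rate these medians were highest at positions 3 and 4, with 0.803% to 0.892%. At position 5, the place of A5C, they were 0.0459% to 0.0875%. A5C alone had 18 reads of 138 in NAFLD replicate 2, 7 of 110 in NAFLD replicate 3 and 20 of 160 in normal replicate 2. A5C was also seen in miR-34a-5p with 8 reads and in miR-34b-5p and miR-449a-5p with 2 each, all in libraries of high rate. The reason for the gap at position 5 was not tested.

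With these reads added, miR-34c-5p stood at 13.2, 11.7 and 9.31 TPM in NAFLD and at 19.0, 13.5 and 17.8 TPM in normal. All 3 NAFLD libraries were then below all 3 normal ones, though NAFLD replicate 1 and normal replicate 2 differed by less than their counting error. The means were 11.4 ± 1.96 TPM and 16.8 ± 2.91 TPM (n = 3 each, ± SD), a difference of -5.36 TPM (exact permutation test, p = 0.1, the smallest possible). Under this matching the groups did not overlap at 26 of 173 starts tested, and in 4.62% of the starts all NAFLD libraries were the lower ones. In edgeR the log2 fold change was -0.55 (standard error 0.28) with an adjusted p of 0.686, and 0.578% of the starts were called. By counts matched without a mismatch, the groups did not overlap at 4.19% of the starts, with miR-34c-5p not among them.

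**Figure D2:**
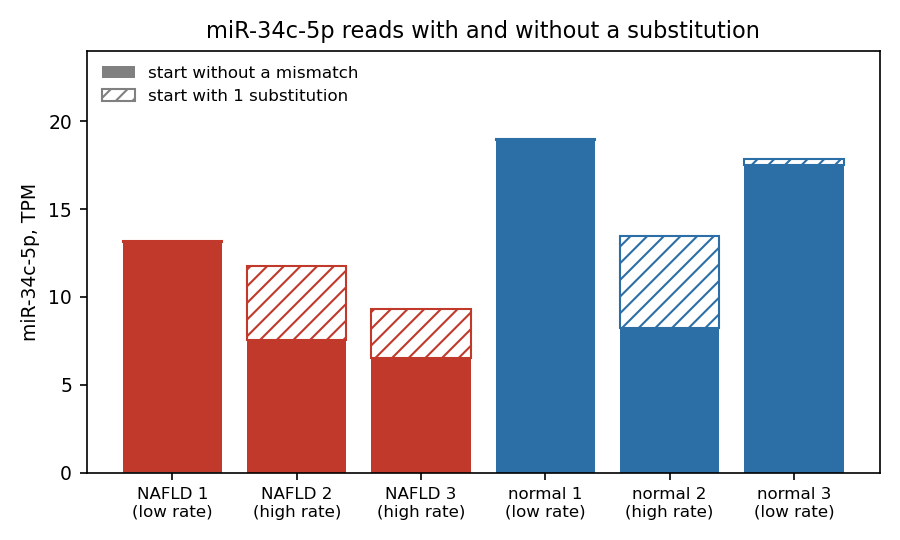
miR-34c-5p in TPM by library, from reads whose first 18 bases match without a mismatch (filled) and from reads with 1 substitution there (hatched), NAFLD in red and normal in blue. The hatched part is 30% to 38.8% of the bar in normal replicate 2 and in NAFLD replicates 2 and 3 and at most 1.89% elsewhere, and with it the bars run from 9.31 to 13.2 TPM in NAFLD and from 13.5 to 19.0 TPM in normal.

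miR-34a-5p, the member most often named in fatty liver, had few reads in every library. It had 25, 4 and 13 reads in NAFLD and 16, 14 and 9 reads in normal, which is 2.15, 0.340 and 1.10 TPM against 1.35, 1.18 and 0.758 TPM. NAFLD replicate 1 was the highest of all libraries and NAFLD replicate 2 the lowest, so the normal libraries lay inside the NAFLD range. The means were 1.20 ± 0.911 TPM and 1.10 ± 0.305 TPM (n = 3 each, ± SD), with a difference of 0.103 TPM (exact permutation test, p = 1). The log2 fold change in edgeR was 0.13 with a standard error of 0.59 (adjusted p 0.986), and without NAFLD replicate 1 it was -0.60. With 1 substitution allowed it was 0.35 (standard error 0.45, adjusted p 0.931). A change of 2-fold in either direction lies within 2 standard errors of the estimate without a mismatch, 0.13, so this fit could not tell it from none. The standard error holds the spread between libraries as well as counting error. Counting error alone is wide here, since the 4 reads of NAFLD replicate 2 have a 95% Poisson interval of 0.0927 to 0.871 TPM.

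miR-34b-5p, the cluster partner of miR-34c-5p, had 10, 1 and 0 reads in NAFLD and 2, 2 and 3 reads in normal. NAFLD replicate 1 alone held 10 of its 18 reads, and a count of 0 in NAFLD replicate 3 allows a level of up to 0.254 TPM by the limit of 3 reads and of 0.312 TPM by the 95% Poisson interval. Of the reads of both cluster members, those of miR-34b-5p were 6.17% in NAFLD replicate 1 (95% Wilson interval 3.39% to 10.99%) and 0% to 2.00% in the other 5 libraries. The interval of normal replicate 1 ended at 3.17%, below that of NAFLD replicate 1, while those of the other 4 libraries ended at 4.10% to 7.001% and overlapped it. The means of 0.316 ± 0.475 TPM and 0.197 ± 0.0484 TPM (n = 3 each, ± SD) differed by less than the spread between the NAFLD libraries (exact permutation test, p = 1).

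miR-449a-5p, from a separate gene with the same seed, had 4, 0 and 5 reads in NAFLD and 3, 0 and 0 reads in normal. Its means were 0.256 ± 0.225 TPM and 0.0844 ± 0.146 TPM (n = 3 each, ± SD), with overlap (exact permutation test, p = 0.4). Both it and miR-34b-5p had too few reads for the edgeR fit, and their levels are given as reads and TPM only. The intervals and limits given hold counting error alone, as copies made by amplification do not count separate molecules. In whole liver fewer cells that hold a miRNA cannot be told apart from less of it per cell.

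By mean TPM over the 6 libraries the order was miR-34c-5p with 12.0 TPM, miR-34a-5p with 1.15 TPM, miR-34b-5p with 0.256 TPM and miR-449a-5p with 0.170 TPM. These are ranks 83, 151, 213 and 234 among the 365 mature starts with a read. The order is one of reads, as how well each sequence was ligated and amplified was not measured. miR-34c-5p was above miR-34a-5p in 6 of 6 libraries, by 5.92 to 23.1 times (two-sided exact paired permutation test, p = 0.0312, adjusted over the 3 neighbouring pairs 0.0469). miR-34a-5p was above miR-34b-5p in 6 of 6 libraries, with the same p and adjusted p of the exact test. miR-34b-5p and miR-449a-5p could not be ordered, since the former was higher in 4 of 6 libraries (exact paired permutation test, p = 0.531). The share of miR-34c-5p in the family reads was 85.1% ± 8.33 in NAFLD and 90.7% ± 4.34 in normal (n = 3 each, ± SD), with overlap (exact permutation test, p = 0.4).

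Around each hairpin, reads were sought at other 5′ ends, which would set another seed, and on the opposite arm. Within the hairpin sequence, miR-34c-5p had 0 reads that began up to 4 nt before or after the mature start, which allows a share of up to 0.354%. miR-34a-5p had 1 such read of 82 and miR-34b-5p 3 of 21, the latter beginning 1 nt earlier. The opposite arms, of which rno-miR-34a-3p had 4 reads in all libraries together, rno-miR-34c-3p 1 read and rno-miR-34b-3p and rno-miR-449a-3p 0 reads at their mature starts, were hardly seen, where 0 reads allow up to 0.253 to 0.259 TPM in a library. A single read of the miR-34b hairpin, in NAFLD replicate 1, lay on the 3′ arm at a shifted start. The relative rno-miR-449c-5p had 2 reads, both in NAFLD replicate 3. rno-miR-449b-5p had no entry in the table, and rno-miR-449c-3p was too short for the rule.

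The 3′ ends, which the rule did not use, differed between the leading members. The read forms are shown as DNA, with bases that do not continue the hairpin in capitals, because they show where each miRNA was trimmed or extended.
miR-34c-5p, 415 reads: aggcagtgtagttagctgattgc
miR-34c-5p, 170 reads: aggcagtgtagttagctgattg
miR-34c-5p, 89 reads: aggcagtgtagttagctgattgT
miR-34c-5p, 57 reads: aggcagtgtagttagctgatt
miR-34c-5p, 37 reads: aggcagtgtagttagctgattgcA
miR-34a-5p, 27 reads: tggcagtgtcttagctggttgt
miR-34a-5p, 19 reads: tggcagtgtcttagctggttgtt
miR-34a-5p, 11 reads: tggcagtgtcttagctggttgttT
miR-34a-5p, 5 reads: tggcagtgtcttagctggttgttTT
miR-34a-5p, 3 reads: tggcagtgtcttagctggttgtAT
In miR-34c-5p the annotated mature form led, joined by forms shorter by 1 or 2 nt and by a form with another last base. In miR-34a-5p the extended forms together outnumbered the annotated one. Reads longer than the mature miRNA were 58.7% ± 16.3 of miR-34a-5p and 8.88% ± 2.66 of miR-34c-5p (SD over 6 libraries). miR-34a-5p had the larger share in 6 of 6 libraries (exact paired permutation test, p = 0.0312, the same after adjustment over both measures of the 3′ end). This measure depends on the annotated length, which is 22 nt for miR-34a-5p and 23 nt for miR-34c-5p. Of the 47 longer reads of miR-34a-5p, 20 were of 23 nt, a length not counted as longer for miR-34c-5p.

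Reads with an untemplated tail, meaning final bases that depart from the hairpin, were 40.8% ± 10.7 of miR-34a-5p and 19.5% ± 2.62 of miR-34c-5p (SD over 6 libraries), again higher for miR-34a-5p in 6 of 6 libraries with the same exact p. Tails of U only made up 17 of the 31 tailed reads of miR-34a-5p and 98 of the 166 of miR-34c-5p, and tails of A only 6 and 56. A substitution after base 18 also counts as a tail. The shares of miR-34a-5p rest on only 4 to 25 reads per library, fewer than the 20 in every library asked for the comparison of forms between groups. Among 104 miRNA starts with at least 20 reads in every library the median share with a tail was 22.9%, with 42 of them below miR-34c-5p and 78 below miR-34a-5p, each by its share over all libraries together. The share of tailed miR-34c-5p reads was 18.4% ± 3.30 in NAFLD and 20.6% ± 1.60 in normal (n = 3 each, ± SD), with overlap (exact permutation test, p = 0.6). Its forms that reached the last mature base or went beyond were 75.7%, 66.3% and 67.5% of the reads in NAFLD and 63.0%, 74.5% and 74.5% in normal, with overlap (exact permutation test, p = 1).

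**Figure D3:**
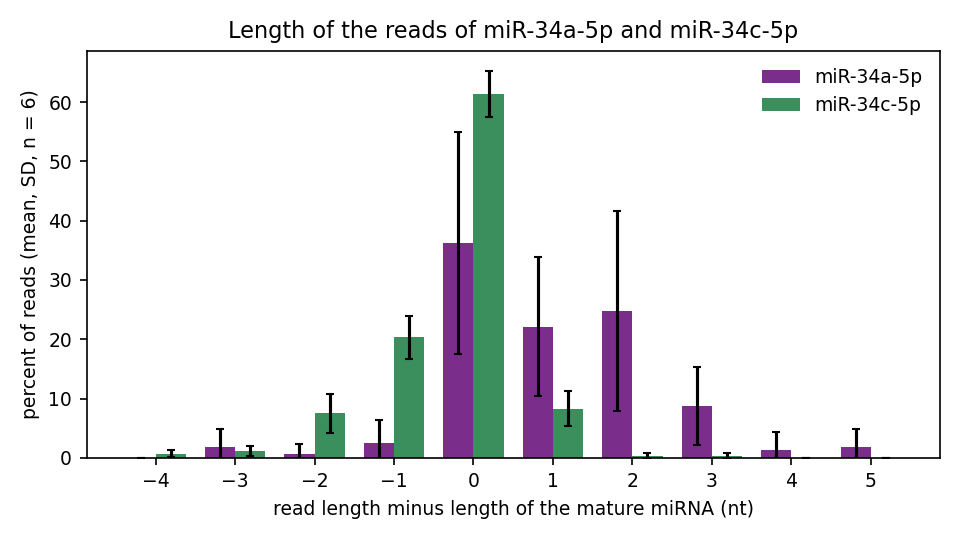
Percent of the reads of miR-34a-5p and of miR-34c-5p by read length minus the length of the mature miRNA, in nt (bars are means over the 6 libraries, error bars the SD). miR-34c-5p peaks at 0 with most other reads 1 to 2 nt shorter, whereas miR-34a-5p spreads from 0 to 3 nt longer, and 58.7% of its reads are longer than the mature form. The mature form has 22 nt in miR-34a-5p and 23 nt in miR-34c-5p.

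Of 9 other miRNAs known to be induced or matured with the help of p53, 8 were in the table and 7 had enough reads for the fit, which left out rno-miR-215. Of these, 0 had an adjusted p under 0.05 with edgeR (the smallest was 0.986) and 0 an unadjusted p under 0.05, and both counts were also 0 with limma and with DESeq2, which tested all 8. The unadjusted count was 1 with TMM factors, against 12 of all 167 starts, and 1 with the replicate block, against 10 of 167. It was 2 with the kind of library by substitution rate in the fit, against 24 of 167. With 1 substitution allowed as well it was 2 of 8, against 28 of 173. Without single libraries it was 0 or 1, against 3 to 7 of all starts. No adjusted p of these p53-linked miRNAs was under 0.05 in these fits. In edgeR by clean reads their log2 fold changes were below 0 for 5 and above 0 for 2, with a median of -0.14 against 0.02 over all starts tested. With the kind of library in the fit 5 of the 7 were above 0, and with miRNA reads as library size 4 were, so their directions depend on the fit. The starts as a whole moved too. Below 0 were 82 of 167 by clean reads, 35 of 167 with the kind of library and 47 of 166 with miRNA reads as library size. Of the 4 with the highest level, rno-miR-192-5p, a miRNA abundant in hepatocytes, had a log2 fold change of 0.04. The start shared by rno-miR-103-3p and rno-miR-107-3p, linked to insulin sensitivity, was at 0.14. rno-miR-194-5p was at -0.04 and rno-miR-143-3p, of smooth muscle and stromal cells, at -0.14.

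**Figure D4:**
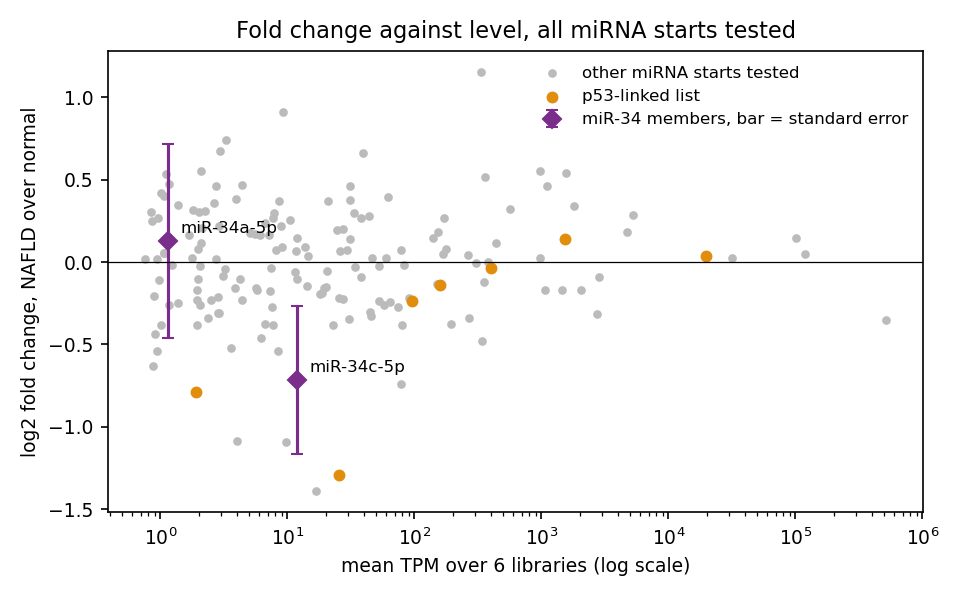
Log2 fold change of NAFLD over normal from edgeR against mean TPM (log scale) for the 167 miRNA starts tested, with the 7 tested p53-linked miRNAs in orange and miR-34a-5p and miR-34c-5p in purple with their standard errors. The bar of miR-34a-5p spans 0, and miR-34c-5p sits at -0.72, among the lowest points.

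The 3 miRNA starts whose log2(TPM + 1) was most like that of miR-34c-5p over the 6 libraries, of 86 with at least 10 TPM, were rno-miR-33-5p, hosted by the gene of the sterol regulator Srebf2 (Pearson r = 0.987), rno-miR-30a-5p (r = 0.940) and rno-miR-30c-5p (r = 0.934). rno-miR-33-5p had 86.2, 46.8 and 42.8 TPM in NAFLD and 117, 46.6 and 130 TPM in normal. These 3 also had their lowest values in the libraries of high substitution rate. Over all 86 starts the median r was 0.633, with 27 of them above 0.8, and all points share the same libraries and their division by substitution rate.

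Markers of cells in the liver were read in the same libraries. rno-miR-122-5p, the main miRNA of hepatocytes, made up 44.5% to 46.5% of the clean reads in NAFLD and 56.1% to 59.6% in normal. The other hepatocyte marker, rno-miR-192-5p, overlapped, with 15345 to 28269 TPM in NAFLD and 11116 to 25426 TPM in normal. Of the epithelial markers 2 of 5 were in the table, rno-miR-200c-3p and rno-miR-141-3p. Their summed level was 0.765 to 2.03 TPM in NAFLD and 1.77 to 2.95 TPM in normal, with rno-miR-141-3p at 0 in NAFLD replicate 2 and normal replicate 2. The ranges of the leukocyte markers (7.23 to 14.6 against 3.71 to 13.0 TPM, 3 of 3 in the table), of the endothelial markers (23.5 to 48.4 against 14.7 to 41.1 TPM, 2 of 2), of the erythroid markers (23.98 to 67.0 against 26.3 to 42.9 TPM, 2 of 2) and of the stromal markers (531 to 664 against 341 to 591 TPM, 4 of 4) overlapped between the groups. Within the stromal list the members differed, as rno-miR-199a-3p was at 400 to 439 TPM in NAFLD and 210 to 384 TPM in normal without overlap (log2 fold change 0.51, edgeR adjusted p 0.986). Of all 167 starts tested, 4.19% did not overlap between the groups. rno-miR-145-5p had a log2 fold change of -1.29 (edgeR adjusted p 0.986), with 84.6 TPM in normal replicate 1 and 6.89 to 21.8 TPM in the other libraries. The part of these cells in the level of miR-34c-5p was not tested.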

How the data were processed

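For each library the authors deposited tags with raw read counts and a log of cleaning steps. Gel-cut RNA of 18 to 30 nt had been sequenced, and low-quality, adaptor-contaminated, insert-free, poly A and under 18 nt reads removed. The deposited counts are neither normalized nor filtered by genome match, and they sum to the clean reads of the log. The labels name Rnor_5.0 (rn5) for the authors' later mapping, which was not used here.

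Tags were summed by the first 18 bases of the RefSeq mature miRNAs (724 entries, GRCr8). Entries under 18 nt (7) were left out, which gave 675 starts, each counted once even if shared. All 4 members matched. TPM was the count divided by total clean reads, times 1000000. miRNA starts were tested with edgeR 4.0.16 (R 4.3.3; glmQLFit, glmQLFTest, filterByExpr, library size equal to clean reads, Benjamini-Hochberg adjustment, threshold 0.05). Standard errors are the absolute log2 fold change over the square root of F. As alternatives, limma 3.58.1 was run on log2(TPM + 1) and log2(TPM + 0.1), and DESeq2 1.42.0 on the counts. Others were TMM factors, miRNA reads as library size, no filter, other matching lengths, 1 substitution allowed, the kind of library as a term, a replicate block and leaving out each library. Single values were compared by exact permutation tests (scipy 1.17.1). The labels do not name the rats, so p-values measure the spread between these libraries. Replicates differed beyond sampling noise (chi-square per degree of freedom 94.3 or more), so each counted as 1.

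The substitution rate was the mean over 20 read positions of the median share of substituted reads over 50 abundant tags, divided at the largest gap. Named miRNAs were the members, listed relatives, p53-linked miRNAs (values for the 4 most abundant), cell markers, and the 3 most alike to a member with at least 20 reads in every library. The members, lists and tests were chosen with earlier results of these data known.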

Additional observations from a re-analysis of the deposited data

How the results depend on the processing

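The log2 fold change of miR-34c-5p was below 0 under all 19 alternatives, from -1.08 to -0.36 with adjusted p from 0.436 to 1.00, and never passed the threshold. Leaving out single libraries gave -1.08 to -0.51. With miRNA reads as library size its edgeR log2 fold change was -0.52 (standard error 0.44, adjusted p 0.963). With miRNA reads as library size and with the kind of library (high or low substitution rate) in the fit, the median of all starts moved to 0.20 and 0.24. Relative to this median miR-34c-5p was at -0.72 and -0.59, against -0.73 by clean reads. With the replicate block its log2 fold change was -0.69 (adjusted p 0.777), and the block changed no call. Deviations of same-numbered libraries of the groups correlated at 0.149 and 0.340 for replicates 1 and 2, whose libraries are of the same kind. For replicate 3, whose libraries are of unlike kinds, the value was -0.541. Libraries of the same kind but of different numbers correlated at 0.356 and 0.452. These values cannot decide on pairing, because the kind of library goes with them, and the numbers were not taken to pair the rats.

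miR-34a-5p had no stable direction. Its log2 fold change was -0.029 with DESeq2, -0.022 with TMM factors, -0.0064 with limma on log2(TPM + 1) and -0.14 on log2(TPM + 0.1), and -0.60 to 0.57 when single libraries were left out. Its TPM difference turned to -0.135 with whole mature sequences only and to -0.459 within the libraries of high substitution rate, against 1.10 within those of low rate and 0.330 with 1 substitution allowed, and ran from -0.375 to 0.532 without single libraries. For miR-34b-5p it was -0.126 within the libraries of high rate and -0.154 to 0.277 without single libraries, the lowest without NAFLD replicate 1. The difference in long forms of miR-34c-5p ran from -4.68 to 1.11 percentage points without single libraries.

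The count of starts with an adjusted p under 0.05, 1 in edgeR by clean reads, was 0 with TMM factors (12 at an unadjusted p under 0.05), 0 with miRNA reads as library size (6 unadjusted), and 0 over 10516 tag starts of any kind (998 unadjusted). It was 4 with 1 substitution allowed and the kind of library in the fit, a setting chosen after seeing the data, and 1 to 2 without single libraries. No member was among the calls, and the causes were not tested. miR-34b-5p and miR-449a-5p entered only edgeR without a filter, at log2 fold changes of 0.65 and 1.49 (adjusted p 0.995 each), and DESeq2. Their 18 and 12 reads limit any statement. For whole mature sequences only, miR-34a-5p had too few reads for the fit.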
